A study of Mus musculus with 9 samples.

Results

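The pentose phosphate pathway and the other enzymes that make NADPH in the cytosol were described here as 9 genes: G6pdx, Pgls, Pgd, Rpia, Rpe, Tkt, Taldo1, Me1 and Idh1. Members were the probe sets whose platform annotation held exactly 1 of these symbols. Of the 9 genes, 8 had such a probe set among the 19938 genes named on the array, 7 of them with 1 probe set and Me1 with 2; G6pdx was not analysed here. The filter kept probe sets whose signal exceeded the 40th percentile of the array on at least 3 arrays; all 9 exceeded it on all 9 arrays, so no member entered the test only through the genotype in which it was high.

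Expression was measured on oligonucleotide arrays in erythroblasts, the nucleated precursors of red cells, sorted from mouse fetal liver at E14.5 for surface CD71 and Ter119 and for high forward scatter. The genotypes were Th3/Th3, with 2 copies of a deletion of the adult beta-globin genes, Th3/+, with 1 copy, and wild type, with 3 samples and 1 array per sample in each. All embryos came from crosses of Th3/+ parents, and the strain was of 129SV origin, backcrossed for 9 generations to C57BL/6. The labels call the samples biological replicates and do not say whether one was a single embryo or a pool, so the p-values rest on the variation among 3 samples of each genotype, which may be partly technical.

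The pathway starts from glucose 6-phosphate. Its oxidative branch (glucose 6-phosphate dehydrogenase, then Pgls, then Pgd) yields NADPH and ribulose 5-phosphate. Its non-oxidative branch (Rpia, Rpe, Tkt, Taldo1) turns that sugar into ribose 5-phosphate for nucleotides or back into glycolytic intermediates. Me1 and Idh1 make cytosolic NADPH from malate and isocitrate. In red cells NADPH keeps glutathione and thioredoxin reduced, and an inherited shortage of glucose 6-phosphate dehydrogenase in people is a known cause of hemolysis under oxidant stress.

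The 2 probe sets shared by the adult beta-globin genes held 8.43 to 10.09 (log2) in Th3/Th3, 13.68 to 13.81 in Th3/+ and 13.76 to 13.86 in wild type. The 3 Th3/Th3 arrays were thus lower, in the direction of the labelled loss. Their signal on these probe sets stayed above the medians of the same arrays (4.97 to 5.04), and its source was not tested. The Th3/+ values lay close to those of wild type. Th3/Th3 replicate 1 and Th3/+ replicate 1 stood apart from the other arrays on the second principal component (25.5 and 20.5, against -14.9 to 7.7 for the other arrays), which held 16.7% of the variance. Within each genotype replicate 1 was highest on this component and replicate 3 lowest (7.7, 5.2 and -12.0 for wild type replicates 1, 2 and 3). Xist, the transcript of the inactive X chromosome, was high in Th3/Th3 replicates 1 and 2, Th3/+ replicate 2 and wild type replicate 1 (8.85 to 9.63) and low elsewhere (3.74 to 4.14). All 10 measured erythroblast markers were bright enough to pass the signal filter. In Th3/Th3 8 of them were called lower than in wild type, and their summed linear signal was 16847 to 20792 in Th3/Th3, 31634 to 33297 in Th3/+ and 31331 to 35913 in wild type. Macrophage markers were also lower, 3 of the 9 that passed, with summed signal of 437 to 501, 600 to 1035 and 595 to 763 over all 12, and Csf1r, Mrc1 and Cd14 among them failed the filter. Of hepatoblast, megakaryocyte, granulocyte, lymphoid and endothelial markers, 0 were called in Th3/Th3 against wild type (limma adjusted p under 0.05). At an unadjusted p under 0.05 there were 2 megakaryocyte markers and no other of these. Of all 17742 probe sets tested, 4.98% were called lower and 4567 had an unadjusted p under 0.05. The members described next moved opposite to the erythroblast and macrophage markers, and the part of cell composition in their differences was not tested. In sorted bulk samples a change in the mix of cells and a change in RNA per cell cannot be told apart.

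Of the 8 measured members, 4 rose in Th3/Th3 against wild type and 0 fell, where 7.31% of all 17742 probe sets tested were called higher and 4.98% lower (12.3% in either direction). They were Pgd, which rose 7.51-fold, and Rpia, Pgls and Taldo1, which rose between 1.51-fold and 1.58-fold. Me1 was counted by its brighter probe set, which was not called, while its dimmer one was called higher (adjusted p = 0.0179). All 8 members lay above wild type, with a median difference of 0.66 (log2), while 50.0% of all probe sets lay above and their median difference was 0.00. The arrays of the genotypes did not overlap for 5 members, all higher in Th3/Th3 (Pgls, Pgd, Rpia, Tkt and Taldo1), where 15.4% of all probe sets were higher without overlap. Pgd and Taldo1 kept their calls under all 20 alternatives tried, the omission of each array in turn among them. The count of 4 was 2 without Th3/Th3 replicate 2, without wild type replicate 1 or without wild type replicate 2 (Pgd and Taldo1 each time), 6 without Th3/Th3 replicate 1 (Pgd, Rpia, Rpe, Taldo1, Me1 and Idh1), and 5 without the 2 arrays that stood apart.

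**Figure D1:**
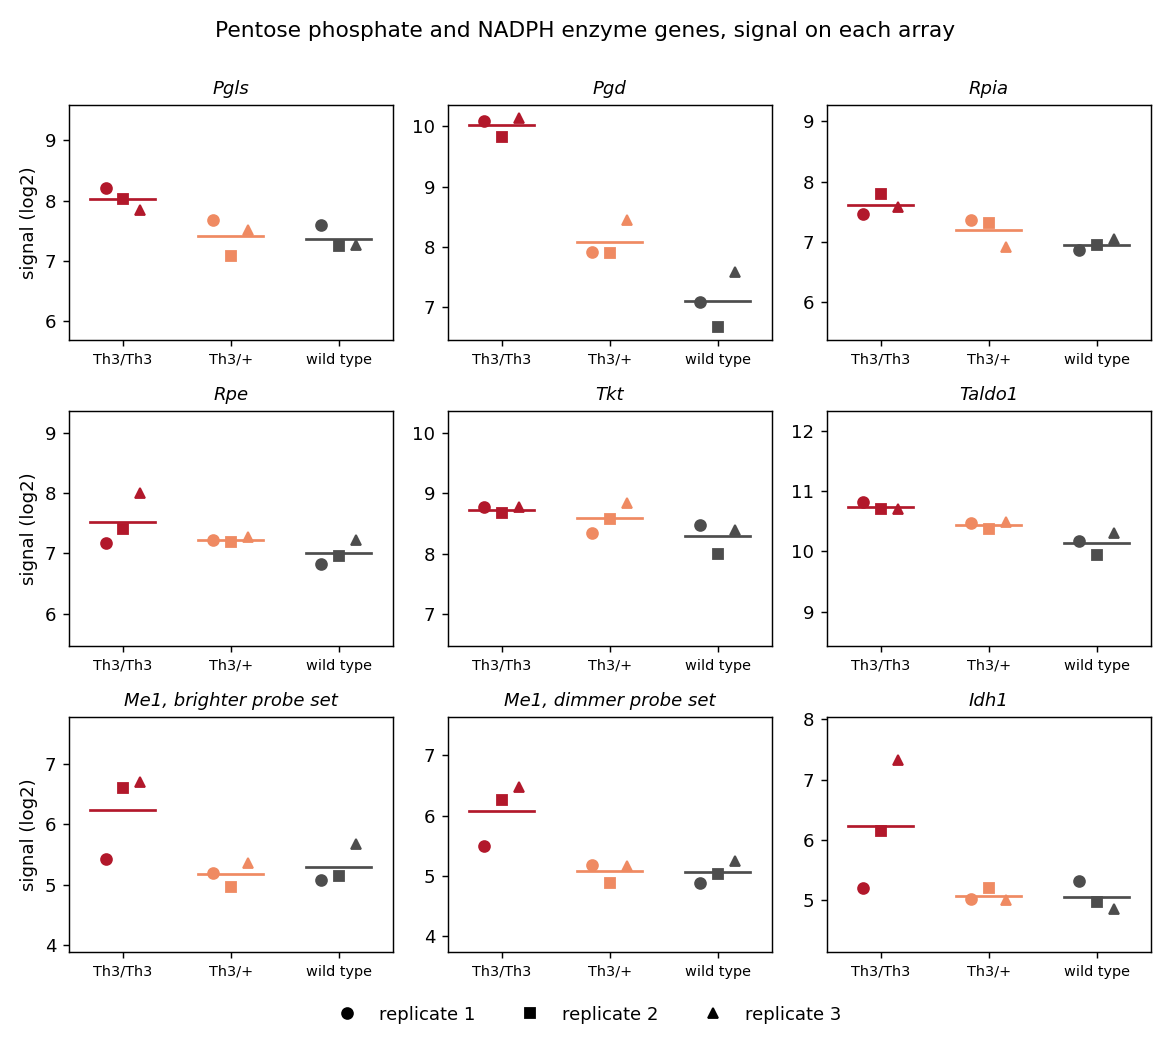
Signal (log2, vertical axes of equal span) of the 9 member probe sets on each array, by genotype, with the replicate number as the symbol and the genotype mean as the bar. Pgd separates the 3 genotypes (10.02, 8.09 and 7.11 in Th3/Th3, Th3/+ and wild type), and for Me1 and Idh1 Th3/Th3 replicate 1 sits near the Th3/+ and wild type arrays while replicates 2 and 3 sit above them.

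In the oxidative branch, Pgd encodes 6-phosphogluconate dehydrogenase, the enzyme of the second NADPH-yielding step. Its signal was 10.09, 9.83 and 10.14 (log2) on the Th3/Th3 arrays, 7.92, 7.90 and 8.45 on the Th3/+ arrays, and 7.08, 6.68 and 7.58 on the wild type arrays. The genotypes did not overlap, with Th3/Th3 highest, Th3/+ between and wild type lowest. In Th3/Th3 against wild type the difference was 2.91 (SE 0.24, 95% interval 2.37 to 3.44, limma adjusted p = 0.000172), the 6th largest rise of the 17742 probe sets. Left-out arrays moved it between 2.69 and 3.14. Pgd was also the only member called in Th3/Th3 against Th3/+ by its brightest probe set, with a rise of 1.93 (SE 0.24, adjusted p = 0.00237, 3.81-fold), where 4.01% of all probe sets were called higher (7.27% in either direction).

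The promoter of Pgd is shown because this member moved most, and that of Taldo1 because it is the other member whose call held under all alternatives. The Me1 promoter is shown because it holds a match, in capitals, to the core of the antioxidant response element, TGACNNNGC, which NRF2 binds with small MAF proteins. The windows run from 250 bases before to 50 bases after a RefSeq transcript start (GRCm38.p6), 5′ to 3′ on the strand of the gene: chr4:149166656-149166955, minus strand, for the upstream one of 2 Pgd starts, chr7:141391910-141392209, plus strand, for Taldo1, and chr9:86695865-86696164, minus strand, for 1 of 2 Me1 starts.
Pgd: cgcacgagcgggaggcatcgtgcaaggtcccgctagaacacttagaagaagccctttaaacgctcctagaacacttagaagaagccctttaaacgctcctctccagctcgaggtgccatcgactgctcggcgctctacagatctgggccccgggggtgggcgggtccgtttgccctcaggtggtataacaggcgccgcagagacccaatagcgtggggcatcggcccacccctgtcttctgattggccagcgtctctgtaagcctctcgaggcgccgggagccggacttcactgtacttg
Taldo1: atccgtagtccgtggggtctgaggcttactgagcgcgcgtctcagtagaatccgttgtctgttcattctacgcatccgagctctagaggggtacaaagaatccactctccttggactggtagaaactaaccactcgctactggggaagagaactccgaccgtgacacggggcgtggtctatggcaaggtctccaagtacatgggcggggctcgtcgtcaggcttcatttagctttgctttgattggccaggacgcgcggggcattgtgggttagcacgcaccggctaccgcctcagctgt
Me1: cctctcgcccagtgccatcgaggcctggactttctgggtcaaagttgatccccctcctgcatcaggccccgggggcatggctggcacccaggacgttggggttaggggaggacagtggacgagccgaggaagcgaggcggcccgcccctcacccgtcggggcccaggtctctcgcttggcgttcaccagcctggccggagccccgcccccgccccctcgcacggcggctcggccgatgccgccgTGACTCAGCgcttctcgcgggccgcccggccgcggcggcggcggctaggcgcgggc

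The match in the Me1 window begins 6 bases before the transcript start. On either strand, the core was in 12.4% of all 32851 promoters in the table and in 17.3% of those of genes higher in Th3/Th3. It was in 3 of the 12 windows of the 9 genes, 25.0% of them. The other matches were in the G6pdx window, 57 bases before the start, and in the window of a second, downstream Pgd start, 3 bases after it. That Pgd match thus lies in transcribed sequence, not upstream of a start, and whether the downstream start is used in these cells was not tested. The Pgd window printed above, and those of Pgls, Rpia, Rpe, Tkt, Taldo1 and Idh1, held no match to these letters. The longer form, the core followed by an A, was in 1 of the 12, at the same transcribed Pgd match. It was in 3.04% of all promoters and 3.39% of those of genes higher in Th3/Th3. The heat shock element core GAANNTTC was in 0 of the 12 (7.86% of all promoters) and the E-box CACGTG in 0 (7.15%). For promoters of genes higher in Th3/Th3 these shares were 7.55% and 13.2%. A match describes letters in a window and is no evidence of binding.

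Pgls encodes 6-phosphogluconolactonase, which supplies the substrate of Pgd. It held 8.20, 8.03 and 7.84 (log2) in Th3/Th3, 7.67, 7.08 and 7.51 in Th3/+, and 7.59, 7.24 and 7.27 in wild type. All Th3/Th3 arrays were above all others, and Th3/+ overlapped wild type. It rose by 0.65 in Th3/Th3 against wild type (1.57-fold, SE 0.18, adjusted p = 0.0453). This call was close to the threshold and was lost under 13 of 20 alternatives, among them each left-out array except Th3/+ replicates 1 and 2, with adjusted p between 0.0217 and 0.144 and differences between 0.56 and 0.76 over the 20. Against Th3/+ the difference was 0.60 (adjusted p = 0.0842).

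No probe set for the X-linked gene of the first step was analysed here. A probe set is annotated to G6pd2, an intronless copy of that gene, and signal from both genes cannot be told apart where their sequences match. It held 7.50, 7.50 and 7.85 (log2) in Th3/Th3, 7.36, 7.67 and 7.70 in Th3/+, and 7.09, 6.91 and 7.55 in wild type. The difference of Th3/Th3 from wild type was 0.44 (95% interval 0.01 to 0.86, adjusted p = 0.182) and that of Th3/+ was 0.39 (interval -0.03 to 0.82, adjusted p = 1.00), with the arrays overlapping in both.

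In the non-oxidative branch, Taldo1 encodes transaldolase, which moves a carbon unit between sugar phosphates. Its signal was 10.82, 10.70 and 10.70 (log2) in Th3/Th3, 10.47, 10.37 and 10.48 in Th3/+, and 10.18, 9.94 and 10.31 in wild type. As with Pgd, the genotypes formed 3 sets that did not overlap, in the same order. The rise in Th3/Th3 against wild type was 0.60 (1.51-fold, SE 0.11, adjusted p = 0.00725), and left-out arrays moved it between 0.50 and 0.68. Taldo1 lies on chromosome 7, as do the beta-globin genes, and the part of 129SV sequence linked to the Th3 allele was not tested.

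Rpia encodes ribose 5-phosphate isomerase, which makes the sugar of nucleotides. It held 7.47, 7.79 and 7.57 (log2) in Th3/Th3, 7.37, 7.31 and 6.91 in Th3/+, and 6.86, 6.95 and 7.04 in wild type. The Th3/Th3 arrays were above all others, and Th3/+ replicates 1 and 2 were above the wild type range while replicate 3 was within it. Rpia rose by 0.66 in Th3/Th3 against wild type (1.58-fold, SE 0.15, adjusted p = 0.0205). The call was lost without Th3/Th3 replicate 2, wild type replicate 1 or wild type replicate 2 (adjusted p = 0.0695, 0.0744 and 0.0652).

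Rpe, the epimerase that makes xylulose 5-phosphate, and Tkt, transketolase, a thiamine-dependent enzyme, did not pass the test. Rpe held 7.17, 7.41 and 8.01 (log2) in Th3/Th3, 7.22, 7.19 and 7.28 in Th3/+, and 6.82, 6.95 and 7.22 in wild type. Th3/Th3 replicate 1 lay within the wild type range and replicate 3 was the highest array. The difference of Th3/Th3 from wild type was 0.53 (1.45-fold, 95% interval 0.08 to 0.99, adjusted p = 0.133), and without Th3/Th3 replicate 1 it was 0.71 (adjusted p = 0.0459).

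Tkt held 8.77, 8.67 and 8.77 (log2) in Th3/Th3, 8.35, 8.57 and 8.85 in Th3/+, and 8.48, 7.99 and 8.40 in wild type. All Th3/Th3 arrays were above the wild type arrays, and the highest array was Th3/+ replicate 3. The difference of Th3/Th3 from wild type was 0.45 (1.36-fold, interval 0.06 to 0.83, adjusted p = 0.136), so a change of up to 1.78-fold is within its interval. The paralog Tktl1 failed the filter, at 3.30 to 3.81 in Th3/Th3, 3.39 to 3.45 in Th3/+ and 3.44 to 3.54 in wild type.

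**Figure D2:**
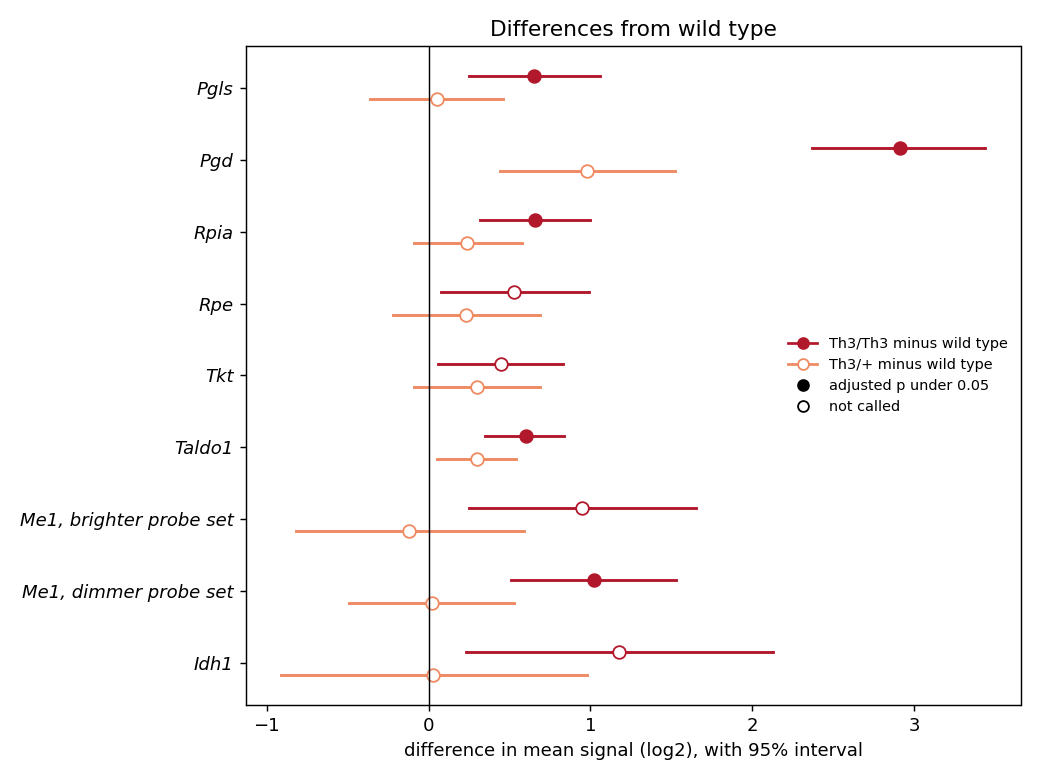
Difference in mean signal (log2, horizontal axis) from wild type for each member probe set, in Th3/Th3 (dark red) and Th3/+ (orange), with 95% intervals from limma as bars and filled points where the adjusted p was under 0.05. The Th3/Th3 intervals of all 9 probe sets lie above 0, 5 with filled points, and in Th3/+ only those of Pgd and Taldo1 do, with no filled point.

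Me1 and Idh1, the makers of NADPH from malate and isocitrate, varied most between Th3/Th3 samples. Me1 encodes the cytosolic malic enzyme. Its brighter probe set held 5.42, 6.61 and 6.70 (log2) in Th3/Th3, 5.20, 4.96 and 5.36 in Th3/+, and 5.07, 5.14 and 5.67 in wild type. Its dimmer one held 5.49, 6.26 and 6.48 in Th3/Th3, 5.19, 4.89 and 5.16 in Th3/+, and 4.89, 5.04 and 5.25 in wild type. On both, Th3/Th3 replicates 2 and 3 were above all Th3/+ and wild type arrays and replicate 1 was the lowest of its genotype. On the brighter one replicate 1 lay within the wild type range.

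The probe sets of Me1 gave nearly the same difference but not the same call. Their identifiers on the array lie far apart, and whether the brighter one reads Me1 transcripts or another locus was not tested. The brighter one, which stands for the gene in the counts, differed by 0.95 in Th3/Th3 against wild type (1.93-fold, SE 0.31, adjusted p = 0.0854), and the dimmer one rose by 1.02 (2.03-fold, SE 0.23, adjusted p = 0.0179). Without Th3/Th3 replicate 1 the brighter one rose by 1.36 (adjusted p = 0.00393). The dimmer one lost its call without Th3/Th3 replicates 2 or 3 or wild type replicates 1 or 2 (adjusted p between 0.0545 and 0.0707) and where only these genotypes were fitted (adjusted p = 0.0520). Against Th3/+ the dimmer one rose by 1.00 (adjusted p = 0.0291), a call lost when any of 6 arrays was left out (Th3/Th3 replicates 2 and 3, each Th3/+ array and wild type replicate 2, adjusted p between 0.0513 and 0.112), and the brighter one differed by 1.07 (adjusted p = 0.0786).

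Idh1 encodes the cytosolic NADP-dependent isocitrate dehydrogenase. It held 5.20, 6.15 and 7.33 (log2) in Th3/Th3, 5.03, 5.20 and 5.01 in Th3/+, and 5.32, 4.97 and 4.85 in wild type. Th3/Th3 replicate 1 was within the wild type range, and replicates 2 and 3 were above every other array. The difference of Th3/Th3 from wild type was 1.18 (2.26-fold, SE 0.42, 95% interval 0.23 to 2.13, adjusted p = 0.109). It was 1.69 without Th3/Th3 replicate 1 (adjusted p = 0.00994) and 0.63 without replicate 3, so single arrays decide its size. The low replicate of Me1 and Idh1 is 1 of the 2 arrays that stood apart, and the part of array quality in this was not tested. In wild type the values of Me1 and Idh1 lay between the 46.8th and the 63.3rd percentile of their arrays, near the array medians. Their wild type means (5.05 to 5.29) were below those of the other members (6.95 to 10.14). Cd3e, the 1 lymphoid marker that passed the filter, had a wild type mean of 5.01. The 4 endothelial and stromal markers that passed had 4.68 to 6.35. Whether the wild type and Th3/+ signal of Me1 and Idh1 exceeded background was not tested, which limits their fold changes.

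In Th3/+ against wild type 0 of the 8 members were called, where 5 of the 17742 probe sets (0.0282%) were, all higher. At an unadjusted limma p under 0.05 there were 2, Pgd and Taldo1, against 645 of all probe sets. Of the 8 members 7 lay above wild type, Me1 being the exception on its brighter probe set, with a median difference of 0.24, and 51.9% of all probe sets lay above. Pgd differed by 0.98 (1.97-fold, SE 0.24, 95% interval 0.44 to 1.52, adjusted p = 0.734) and Taldo1 by 0.30 (1.23-fold, interval 0.05 to 0.54, adjusted p = 1.00). Their Th3/+ arrays were all above their wild type arrays, where 4.40% of all probe sets were higher without overlap.

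The other members in Th3/+ split by how near they lay to wild type. The differences were 0.24 for Rpia, 0.23 for Rpe and 0.30 for Tkt, each with an interval that spans 0. They were 0.05 for Pgls (interval -0.36 to 0.46), 0.03 for Idh1 (interval -0.91 to 0.98) and, for the probe sets of Me1, -0.12 and 0.02, with signs that turned under some alternatives for each of these 3 genes. The model holds 1 variance per probe set over all 9 arrays, so the interval of Idh1 includes the scatter of its Th3/Th3 arrays. Th3/+ and Th3/Th3 were set against the same wild type arrays, so their differences from wild type are not independent.

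Whether Th3/+ departed from the midpoint of Th3/Th3 and wild type was tested as a contrast, and 0 of 8 members were called, where 0.0789% of all probe sets were. At an unadjusted limma p under 0.05 there was 1 by the probe sets that stand for genes, against 1389 of all 17742 probe sets. It was Pgd, 0.47 below the midpoint (difference -0.47, interval -0.94 to -0.01, adjusted p = 0.620). The dimmer probe set of Me1 also passed that level (difference -0.49, unadjusted p = 0.0330, adjusted p = 0.570). Taldo1 lay at the midpoint, with a difference of 0.00 (interval -0.21 to 0.21). Me1 lay 0.59 below on its brighter probe set and Idh1 0.56 below (differences -0.59 and -0.56, adjusted p = 0.659 and 0.798).

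In Th3/Th3 against Th3/+ all 8 members lay higher in Th3/Th3, with a median of 0.51, against 50.1% of all probe sets. Pgls, Pgd, Rpia, Taldo1 and, on both probe sets, Me1 had Th3/Th3 arrays that were all above the Th3/+ arrays, where 12.9% of all probe sets were higher without overlap. Pgd alone was called among the probe sets that stand for genes, and the dimmer probe set of Me1 was called as well (adjusted p = 0.0291). Without Th3/Th3 replicate 1, Me1 (1.48, adjusted p = 0.00465) and Idh1 (1.66, adjusted p = 0.0162) were called too.

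The genes around the members were taken from 6 lists. Beside their counts in Th3/Th3 against wild type stand the 7.31% of all probe sets called higher and the 4.98% called lower. Of 20 other enzymes of the pathway and of ribose 5-phosphate use, 15 were tested, 2 rose in Th3/Th3 against wild type and 0 fell, with a median difference of 0.40. Pgm2, a phosphoglucomutase of the family that also converts ribose phosphates, held 6.75 ± 0.19 (log2, SD, n = 3) in Th3/Th3, 5.82 ± 0.49 in Th3/+ and 5.82 ± 0.31 in wild type, and rose by 0.93 against wild type (1.91-fold, adjusted p = 0.0360). Pgm1, which interconverts glucose 1-phosphate and glucose 6-phosphate, held 5.06 ± 0.10, 4.57 ± 0.16 and 4.65 ± 0.06 in Th3/Th3, Th3/+ and wild type and rose by 0.41 (adjusted p = 0.0180). The other 13 did not pass.

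Of 12 other NADPH-making enzymes and NAD kinases, 7 were tested, 1 rose and 1 fell in Th3/Th3 against wild type, with a median of 0.05. Mthfd2, a mitochondrial folate enzyme, rose by 0.51 (1.43-fold, adjusted p = 0.0278). Whether Mthfd2 made NADPH in these cells was not tested. Nadk2, the mitochondrial NAD kinase that makes NADP, fell by 0.74 (adjusted p = 0.0210), to 10.42 ± 0.35 (SD, n = 3) in Th3/Th3, against 11.06 ± 0.17 in Th3/+ and 11.17 ± 0.14 in wild type. Of 12 enzymes and carriers of citrate, malate and isocitrate, 11 were tested and 0 were called by limma, with a median of 0.16. At an unadjusted p under 0.05 there were 3, against 4567 of all 17742 probe sets. The smallest p-values were those of Idh3b, a subunit of the NAD-dependent isocitrate dehydrogenase (difference 0.44, adjusted p = 0.0577), and Acly, ATP citrate lyase (0.50, adjusted p = 0.0939).

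Of 22 enzymes that use NADPH, 14 were tested, 6 rose and 1 fell in Th3/Th3 against wild type, with a median of 0.34. Ptgr1, which reduces reactive aldehydes and prostaglandins, rose by 3.35 (10.2-fold, adjusted p = 0.000208). Gsr, glutathione reductase, held 10.04 ± 0.23 (SD, n = 3) in Th3/Th3, 9.03 ± 0.15 in Th3/+ and 8.81 ± 0.27 in wild type, a rise of 1.23 against wild type (2.35-fold, adjusted p = 0.00223). Akr1a1, an aldehyde reductase, rose by 0.98 (adjusted p = 0.000567) and Nqo1, a quinone reductase, by 1.21 (adjusted p = 0.00233). The remaining ones are named after their values were seen: Txnrd1, cytosolic thioredoxin reductase, rose by 1.39 and Blvra, a biliverdin reductase, by 0.73, while Txnrd2, the mitochondrial thioredoxin reductase, fell by 0.59 (adjusted p = 0.0128).

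**Figure D3:**
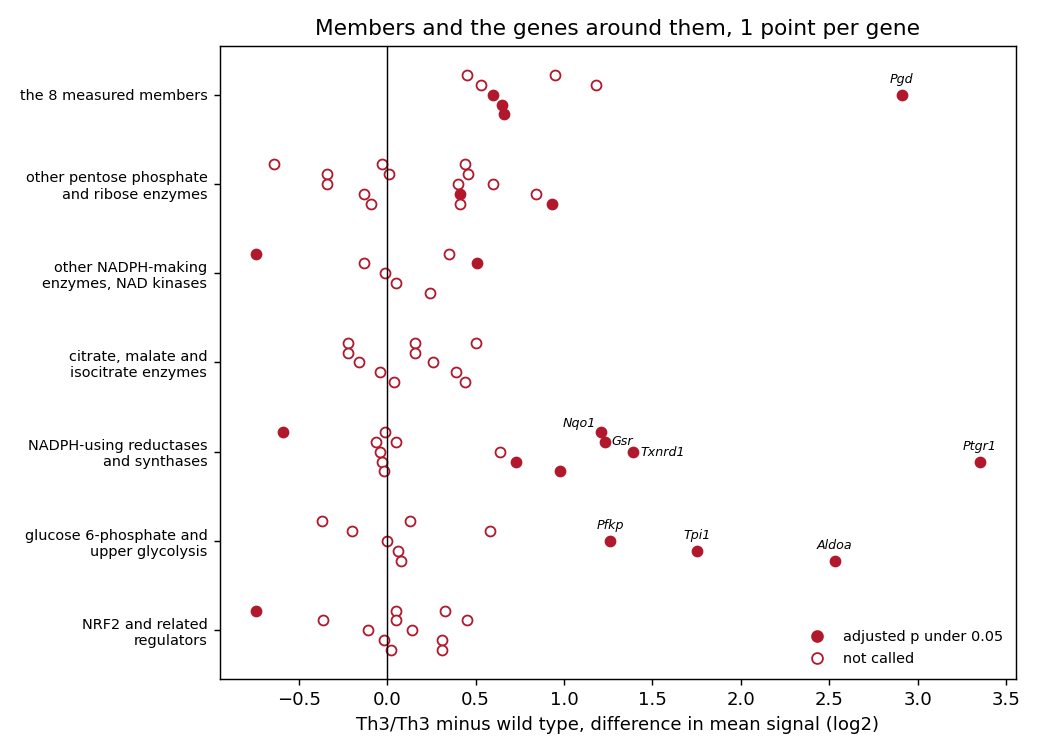
Difference in mean signal between Th3/Th3 and wild type (log2, horizontal axis) for the 8 measured members and for the tested genes of 6 lists, 1 point per gene, filled where the adjusted p was under 0.05; vertical offsets within a row separate the points. The members lie between 0.45 and 2.91, and the list of citrate, malate and isocitrate enzymes has no filled point.

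At the entry to the pathway, 10 of 18 genes of glucose 6-phosphate and upper glycolysis were tested, 3 rose and 0 fell in Th3/Th3 against wild type, with a median of 0.10. Tpi1, triose phosphate isomerase, rose by 1.75 (adjusted p = 8.72e-05), Aldoa, aldolase A, by 2.53 (adjusted p = 0.000218) and Pfkp, a phosphofructokinase, by 1.26 (adjusted p = 0.000629). Tpi1 and Aldoa both handle the triose phosphate that transaldolase and transketolase exchange with glycolysis. Of 13 regulators, 12 were tested, 0 rose and 1 fell, with a median of 0.05. Nfe2, an erythroid relative of NRF2, fell by 0.74 (adjusted p = 0.00269). Nfe2l2, the gene of NRF2 itself, named after its value was seen, held 8.57 ± 0.42 (SD, n = 3) in Th3/Th3, 8.69 ± 0.26 in Th3/+ and 8.68 ± 0.01 in wild type (difference of Th3/Th3 from wild type -0.11, adjusted p = 0.804).

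In Th3/+ against wild type 0 genes of any of the 6 lists were called by limma. At an unadjusted p under 0.05 there were up to 2 per list, against 645 of all 17742 probe sets. Tpi1 held 10.39, 10.56 and 10.84 (log2) in Th3/+, against 9.76, 9.51 and 9.71 in wild type, a difference of 0.93 (adjusted p = 0.0734). Aldoa held 9.48, 10.06 and 10.19 in Th3/+, against 8.85, 8.41 and 9.14 in wild type, a difference of 1.11 (adjusted p = 0.478). For both, as for Pgd and Taldo1, the Th3/+ arrays did not overlap the wild type arrays. Over all probe sets 4.40% were higher without overlap. Higher without overlap were also Akr1a1, Blvra and Blvrb, which use NADPH, Mthfd2, and the regulator Atf4. Tigar, of the other pathway enzymes, was lower without overlap. Ptgr1 and Gsr differed by 0.26 and 0.22, with overlap. In Th3/Th3 against Th3/+, 1 of the other pathway enzymes, 6 enzymes that use NADPH and 3 genes of glycolysis rose. There 1 enzyme that uses NADPH and 1 regulator fell. The other NADPH-making enzymes and the citrate, malate and isocitrate enzymes had 0 calls (1 in each at an unadjusted p under 0.05). Of all 17742 probe sets, 7.27% were called in that comparison (4.01% higher), and 3750 had an unadjusted p under 0.05.

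Across the 9 arrays the 28 pairs of members had Pearson correlations between 0.35 and 0.96, with a median of 0.66, as a description over arrays that share genotypes. The highest was that of Pgd with Taldo1, and the lowest that of Pgls with Rpe. Me1 and Idh1 had 0.84 with each other. The 3 genes most like Pgd among 12151 compared were Sqstm1, the autophagy receptor p62 (0.991), Rtf2 (0.990) and Srxn1, sulfiredoxin (0.990), which rose by 1.47, 0.86 and 2.56 in Th3/Th3 against wild type. Those most like Taldo1 were Psmd2, a subunit of the proteasome cap (0.971), Ftl1, ferritin light chain (0.971), and Supt3 (0.968), which rose by 0.84, 0.54 and 0.47.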

How the data were processed

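Erythroblast RNA was measured on 9 arrays, 3 per genotype, after amplification of 35 ng per the labels. The deposited table holds 1 log2 value per probe set and array. The submitters' processing notes name MAS5 without a version; the unit was read from the values. Background correction, summary method and scan batches were not stated. Array medians were 4.97 to 5.05, and values were used as deposited. The number of arrays limits the precision.

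The 6617 probe sets below the first annotated identifier were taken as controls and left out. A probe set was kept where its signal exceeded that array's 40th percentile on 3 or more arrays (17742 of 28939). Of the 28939, 21789 carry 1 gene symbol, 1621 several and 5529 are not listed. A gene was represented by its brightest kept single-symbol probe set. The model, 1 mean for each genotype over the 9 arrays, was fitted in limma 3.58.1 under R 4.3.3 (lmFit, eBayes with trend), with 4 two-sided contrasts, Benjamini-Hochberg adjustment over kept probe sets and calls at an adjusted p under 0.05. Exact permutation of 3 against 3 cannot go below 0.1. The procedure was tested on simulated data.

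The members, lists and naming rule (all members, up to 4 called genes per list by smallest adjusted p or else 2 as values, the 3 best-correlated genes per member, paralogs) were chosen with earlier results of these data known, so no list was tested. Promoters are from RefSeq (GRCm38.p6); all 9 members matched.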

Additional observations from a re-analysis of the deposited data

How the results depend on the processing

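Each result was recomputed with no or a stricter filter (60th percentile), quantile normalization, median centring, no trend, robust variances, array weights, a replicate block, Xist as a covariate, only the genotypes compared (not for the midpoint, which needs all 3), the mean of a gene's probe sets, without the 2 arrays that stood apart, and without each array in turn. Of 703 recomputed member differences, 641 kept direction and side of the threshold, 28 lost a call, 17 gained one and 17 changed sign, all of the last uncalled. The causes were not tested.

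In Th3/Th3 against wild type, the member count ranged from 2 to 6 and that of all probe sets from 1444 to 2310 over left-out arrays (1444 without wild type replicate 2). In Th3/Th3 against Th3/+ the member count was 4 with array weights (Pgls, Pgd, Me1, Idh1), 3 with the replicate block (Pgls, Pgd, Me1), 3 without the 2 arrays (Pgd, Me1, Idh1) and 1 to 3 over left-out arrays. All calls there were 798 with only these genotypes and 585 to 1412 over left-out arrays (585 and 775 without Th3/+ replicates 2 and 3). In Th3/+ against wild type they were 10 with the stricter filter, 22 with array weights, 0 with only these genotypes, 3 without the 2 arrays and 1 to 12 over left-out arrays. For the midpoint contrast they were 14, and 2 with no filter, 38 with the stricter one, 2 with no trend, 213 with array weights, 3 with the block, 3 with Xist, 1 without the 2 arrays and 1 to 33 over left-out arrays.

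Same-numbered arrays correlated at 0.19, 0.06 and 0.25 in their deviations for Th3/Th3 and wild type. The values were 0.13, -0.13 and 0.36 for Th3/+ and wild type, and 0.28, 0.07 and 0.17 for Th3/Th3 and Th3/+. Of the 9 arrays, 6 correlated best with their own number, and the second principal component followed the number within each genotype. The main model did not take the numbers as pairs, and what same-numbered arrays share was not tested. Under the replicate block Me1 (brighter probe set, 0.95) was called against wild type (adjusted p = 0.0412).

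Over left-out arrays, the differences that changed sign ranged, in Th3/+ against wild type, from -0.08 to 0.22 for Pgls, -0.23 to 0.07 and -0.07 to 0.12 for the brighter and dimmer Me1 probe sets and -0.07 to 0.17 for Idh1, and, against the midpoint, from -0.17 to 0.06 for Rpia, -0.12 to 0.09 for Rpe and -0.05 to 0.20 for Tkt. The sign changes in Th3/+ against wild type were Pgls at -0.08 with array weights, without the 2 arrays and without Th3/+ replicate 1 and -0.01 without wild type replicate 2; Me1, dimmer probe set, at -0.02 with array weights and without Th3/+ replicate 3, -0.03 without the 2 arrays or Th3/+ replicate 1 and -0.07 without wild type replicate 1; Me1, brighter, at 0.07 and Idh1 at -0.07 without wild type replicate 3; and Idh1 at -0.03 without Th3/+ replicate 2. Against the midpoint they were Rpe at 0.01 with quantile normalization, 0.09 without Th3/Th3 replicate 3 and 0.02 without wild type replicate 3, Rpia at 0.06 and Tkt at -0.05 without Th3/+ replicate 3. Without the 2 arrays 1 citrate, malate and isocitrate gene (Idh3b) and 2 regulators (Nfe2, Keap1) were called. The longer promoter motif was in 1 of 12 windows.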

Other observations

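The genes whose signal followed the other members over the 9 arrays are given as values, with no p. Rpia was most like Snx6, a sorting nexin (Pearson r 0.949, difference of Th3/Th3 from wild type 1.28), Dram2 (0.946, 0.95) and Trappc3, of a vesicle tethering complex (0.943, 0.39). Tkt was most like Sympk, a scaffold of mRNA 3′ processing (0.962, 0.63), Umps, which makes uridine monophosphate from a phosphorylated ribose (0.948, 0.60), and Samm50, of the mitochondrial outer membrane (0.935, 0.31). Pgls was most like Ppil3 (0.967, 0.43), Fam216a (0.964, 1.12) and Uqcr11, a respiratory chain subunit (0.951, 0.23). Rpe was most like Izumo4 (0.955, 0.65), Trappc11 (0.953, 0.58) and Btbd9 (0.951, 0.40). Me1 was most like Zfp950 (0.967, 0.87), Mfap3 (0.965, 0.60) and Sc5d, a sterol desaturase (0.962, 0.55), and Idh1 was most like Ppp1r12c (0.983, 0.10), Rsl1d1 (0.982, 0.56) and Chmp7 (0.977, 0.72). Of these 18 genes, Snx6, Dram2, Fam216a, Izumo4, Zfp950 and Mfap3 were called higher in Th3/Th3 against wild type.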
